A study of Mus musculus with 12 samples.

Results

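The proteasome genes of the mouse testis were described in 50 of the 20620 gene rows of the count table, taken as every row whose symbol starts with Psm, one of the letters a to g and a number. The rule used names and no measured value, but it was set with earlier results of these data known. It held 14 constitutive subunits of the core particle, 7 of the alpha type (*Psma1* to *Psma7*) and 7 of the beta type (*Psmb1* to *Psmb7*), and 17 subunits of the regulatory cap, 6 of them ATPases (*Psmc1* to *Psmc6*) and 11 without ATPase activity (of the Psmd series). It also held the germ cell alpha subunit *Psma8*, 3 immune beta subunits (*Psmb8*, *Psmb9* and *Psmb10*), the thymus beta subunit *Psmb11*, 7 assembly chaperones (*Psmg1* to *Psmg4*, *Psmd5*, *Psmd9* and *Psmd10*), 5 activators of the Psme series and the inhibitor *Psmf1*. *Psmc3ip* matches the same letters but encodes a cofactor of meiotic recombination and no proteasome subunit. It stays in the counts below, since the choice was by name, and *Psmb11* drops out of every test for want of counts, so that 49 of the 50 genes were tested, 48 of them proteasome genes and the other *Psmc3ip*.

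Total RNA and ribosome footprints were sequenced from the same extracts of whole testes, taken from C57BL/6 mice on postnatal day 16. The mice were *Mael*-/-, without Maelstrom, a protein of the pathway that makes transposon-silencing piRNAs in germ cells, or *Mael*+/- controls that carry 1 mutant copy. Each genotype gave 3 biological replicates in each assay, so 4 groups made up 12 libraries. No wild-type library was analysed here, and whether a replicate was 1 animal or a pool is not given in the sources used here. In whole testes, fewer cells of a type and less RNA per cell cannot be told apart.

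The proteasome degrades proteins tagged with ubiquitin. Its core particle is a barrel of alpha rings around beta rings, in which *Psmb5*, *Psmb6* and *Psmb7* encode the catalytic subunits, and the cap unfolds the tagged proteins and feeds them in. Some subunits can be exchanged: *Psma8* replaces *Psma7* in meiotic and later germ cells, and *Psmb8*, *Psmb9* and *Psmb10* replace the 3 catalytic subunits in immune cells and after interferon.

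The RNA libraries held 13697267 to 27462358 gene counts and the footprint libraries 7609932 to 13233565. *Mael* itself had 3800 to 5045 counts in the *Mael*+/- RNA libraries and 0 to 2 in *Mael*-/-, and 660 to 1294 against 0 to 7 counts in footprints. Extract 1 of *Mael*+/- stood apart from the others in both assays. Over 12 genes of pachytene spermatocytes, the summed level on the counts-per-million scale (CPM, with library sizes scaled by the trimmed mean of M values within an assay) was 856 CPM in its RNA, against 254 and 277 CPM in the other *Mael*+/- extracts and 193 to 229 CPM in *Mael*-/-. In footprints the sums were 1091 CPM, against 297 and 364 CPM and 250.4 to 294 CPM. No gene of these 12, nor of the 11 early meiotic, 9 spermatogonial, 2 germ cell, 10 Sertoli, 7 Leydig, 14 macrophage and 4 endothelial markers in the table, was at 0 in all 12 libraries. Extract 1 of *Mael*+/- also had the highest early meiotic sums, 2579 CPM against 1062 to 1531 CPM in RNA and 3477 against 1499 to 1745 CPM in footprints. Its germ cell sums were 1211 against 694 to 850 CPM and 1693 against 1055 to 1119 CPM. Its spermatogonial sums were not raised, at 968 against 945 to 1142 CPM and 1155 against 1232 to 1364 CPM.

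None of the 49 members tested, *Psmc3ip* included, passed an adjusted p of 0.05 between *Mael*-/- and *Mael*+/- in RNA, where 0.116% of the 14685 genes tested did, nor in footprints, where 0.0593% of 13500 did (edgeR quasi-likelihood test, Benjamini-Hochberg adjustment over all genes). Translation efficiency, the change in footprints beyond that in RNA, gave 0 of 49 as well, where 0% of 13448 genes passed. An unadjusted p under 0.05 was reached by 2 members in RNA (*Psma8* and *Psmc3ip*, background 5.4%), by 3 in footprints (*Psma8*, *Psmc3ip* and *Psmd14*, background 4.33%) and by 0 in translation efficiency (background 0.394%). With each extract as a block over its RNA and footprints, 2 members came under an unadjusted 0.05 in translation efficiency, *Psma8* at -0.346 (SE 0.138) and *Psmg4* at -0.365 (SE 0.147), both with an adjusted p of 1 in edgeR. Without *Mael*+/- extract 1 in both assays these were -0.217 and -0.394, and *Psmg4* alone came under that threshold. DESeq2 also called 0 members in each of these comparisons, with 1, 3 and 0 at an unadjusted p under 0.05. *Psmb11* had 0 to 2 counts in any library and was not tested.

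The 31 constitutive core and cap subunits moved little. Their log2 change in *Mael*-/- RNA had a median of -0.06, beside 0.00 over all genes, and ran from -0.15 for *Psmc5*, an ATPase of the cap base, to 0.08 for *Psmb4*, a structural beta subunit. In RNA the 95% interval lay within 0.5 log2 of no change for 31 of 31, as it did for 65.0% of all genes tested. In footprints the median was -0.07, the range ran from -0.25 for *Psmd14*, the deubiquitinase of the cap lid, to 0.08 for *Psma7*, and the interval lay within 0.5 log2 for 30 of 31, against 64.0% of all genes. In translation efficiency the median was -0.02 and 30 of 31 intervals lay within those bounds, against 53.0% of all genes. These are intervals of single genes, and a p that misses the threshold does not show equal levels. The shares over all genes are not matched for level, and these subunits have a higher median level than all genes. The shares therefore do not show a trait of proteasome genes.

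*Psmc5* was at 129, 152 and 129 CPM in *Mael*+/- and 108, 125 and 134 CPM in *Mael*-/- RNA, and 197, 205 and 193 CPM in *Mael*+/- and 189, 184 and 193 CPM in *Mael*-/- footprints. The groups overlapped in RNA and in footprints. *Psmc2*, another base ATPase, was at 119, 116 and 109 CPM in *Mael*+/- and 98.6, 108 and 105 CPM in *Mael*-/- RNA, so that the RNA groups did not overlap, and its footprints were at 205, 174 and 207 CPM in *Mael*+/- and 195, 181 and 193 CPM in *Mael*-/-. Groups did not overlap for 4 of 49 members in RNA (*Psma8*, *Psmc2* and *Psmc3ip* lower and *Psme2b* higher in *Mael*-/-, background 10.4%, 5.67% lower and 4.77% higher) and for 5 in footprints (*Psma8*, *Psmb6*, *Psmc3ip* and *Psmg4* lower and *Psmb8* higher, background 9.05%, 4.87% lower and 4.19% higher). Both shares are near those of all genes. The largest changes in translation efficiency among members with at least 20 counts on average were 0.18 for *Psmd7*, a scaffold of the lid, 0.10 for *Psmb8* and 0.09 for *Psmc2* upward, and -0.43 for *Psma8*, -0.38 for *Psmg4* and -0.32 for *Psmb9* downward, each with an adjusted p of 1.

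*Psmd7* was at 156, 139 and 135 CPM in *Mael*+/- and 137, 129.5 and 125 CPM in *Mael*-/- RNA, and 199, 179 and 218 CPM in *Mael*+/- and 219.7, 187 and 212 CPM in *Mael*-/- footprints. Its groups overlapped in both assays, and in footprints *Mael*-/- extract 1 was the highest of the 6 libraries and *Mael*+/- extract 2 the lowest. The SD of log2 CPM over 3 replicates was summarised by its median over the 31 constitutive subunits. It was 0.09 in *Mael*+/- RNA, 0.11 in *Mael*-/- RNA, 0.13 in *Mael*+/- footprints and 0.06 in *Mael*-/- footprints. Over all genes tested it was 0.16, 0.12, 0.19 and 0.11, nearly equal in *Mael*-/- RNA. The sets were not matched for level. In *Mael*+/- RNA these subunits had a median of 107 CPM per mRNA kilobase, beside 11.8 for genes with at least 20 counts on average. Together the 50 genes took 0.559% to 0.638% of the gene counts of an RNA library and 0.651% to 0.726% of those of a footprint library.

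**Figure D1:**
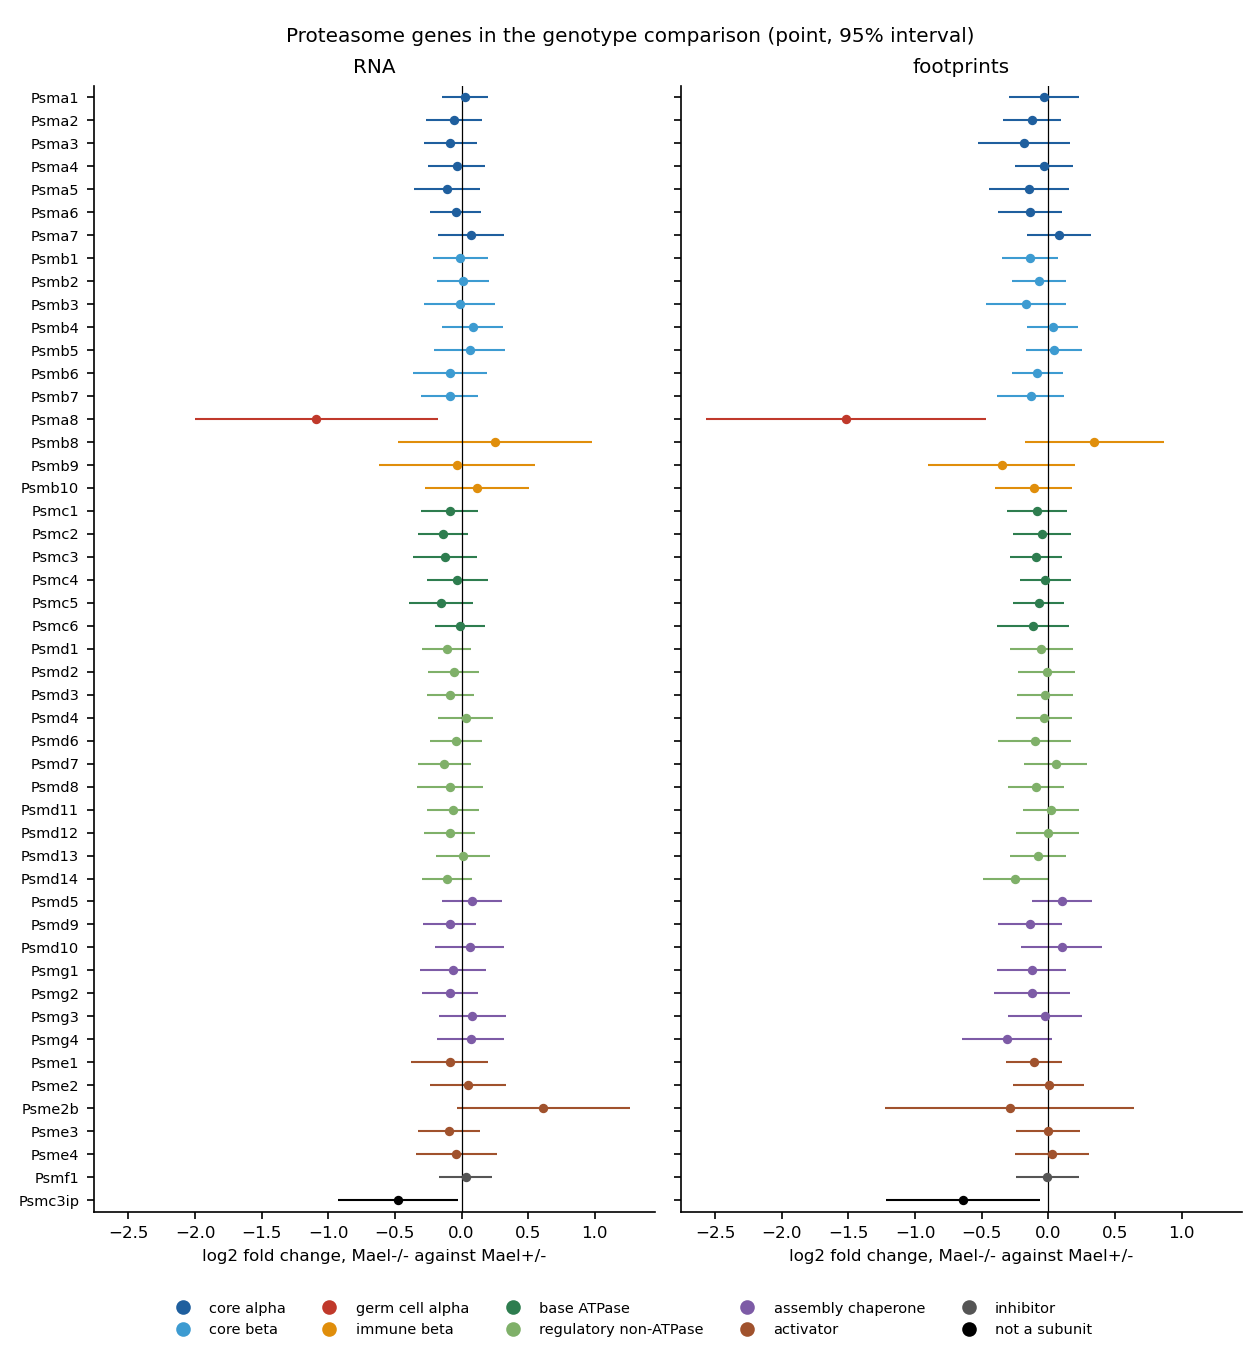
Log2 fold change of the 49 members tested (Psmc3ip included) in Mael-/- against Mael+/- with its 95% interval, in RNA (left) and footprints (right), coloured by role (base ATPase and regulatory non-ATPase form the cap). The constitutive subunits lie between -0.25 and 0.08 in both panels, while Psma8 is at -1.09 and -1.52 with wide intervals.

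Levels between genes were compared per length, as CPM per kilobase of the whole mRNA for RNA and of the coding sequence for footprints (RefSeq lengths, GRCm38, mean ± SD, n = 3). A length joins the exons, or coding parts, of all RefSeq transcripts of a gene with an NM number. In *Mael*+/- footprints the alpha subunits were highest for *Psma7* (404 ± 54.6), *Psma6* (400.5 ± 48.9) and *Psma1* (282 ± 38.3), and lowest for *Psma3* (25.9 ± 3.37), *Psma5* (45 ± 5.83) and *Psma4* (151 ± 15.3). *Psma7* and *Psma6* do not differ beyond their spread. Among the beta subunits *Psmb1* (463 ± 31.99), *Psmb4* (427 ± 5.44) and *Psmb2* (412 ± 7.14) led, and *Psmb3* (46.04 ± 7.23), *Psmb5* (73.2 ± 4.31) and *Psmb6* (254 ± 7.54) were lowest. Over the 14 core subunits the highest level was 17.9 times the lowest.

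Cap subunits spanned 2.79-fold on this scale. Of the base ATPases, *Psmc3* (197 ± 5.08), *Psmc6* (196 ± 27.02) and *Psmc5* (162 ± 5.03) were the highest in *Mael*+/- footprints, and *Psmc1* (98.1 ± 8.81), *Psmc4* (129.7 ± 4.46) and *Psmc2* (150.2 ± 14) the lowest, within 2.01-fold. Of the 11 subunits without ATPase activity, *Psmd4* (213 ± 12.3), a ubiquitin receptor, *Psmd7* (206 ± 20.5) and *Psmd8* (175 ± 12.6) were highest and *Psmd11* (76.4 ± 6.08), *Psmd3* (95.04 ± 7.78) and *Psmd1* (121 ± 15.8) lowest, within 2.79-fold. The median gene with at least 20 counts on average was at 27.0 CPM per coding kilobase.

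In RNA the order was another. *Psmb4* (263 ± 18.1 CPM per mRNA kilobase in *Mael*+/-), *Psmb1* (219.9 ± 13.8) and *Psmb7* (206 ± 2.81) led the beta subunits, *Psma7* (167 ± 19.4), *Psma2* (158 ± 5.86) and *Psma4* (134 ± 6.14) the alpha subunits. *Psmb5* (29.4 ± 1.45) and *Psma3* (31.7 ± 2.08) were the lowest of the core, *Psmd2* (179.7 ± 9.78) and *Psmc3* (173 ± 14.98) the highest of the cap, and *Psmd11* (49.5 ± 3.51) and *Psmc2* (64.1 ± 2.85) the lowest of its non-ATPases and ATPases. The median gene with at least 20 counts was at 11.8 CPM per mRNA kilobase.

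The 4 core subunits lowest in footprints per length, *Psma3*, *Psma5*, *Psmb3* and *Psmb5*, were the 4 with most of their coding sequence repeated elsewhere in the genome. Many proteasome genes have processed pseudogenes, copies of a spliced mRNA that lie in the genome without introns. Every coding window of 30 bases, about the length of a footprint, was looked up in the GRCm38 chromosomes, and a window counted as found elsewhere when its exact letters, on either strand, lay outside the gene. That share was 91.75% for *Psma3*, 89.38% for *Psma5*, 84.72% for *Psmb3*, 79.16% for *Psme2* and 78.07% for *Psmb5*, between 5% and 70% for 11 members, and at most 5% for 33 of the 49 tested. The windows below are, for each of the 5 genes, the first inside 1 exon with exact copies in the most other places, and show what a footprint from them would read.
Psma3 (chr12:70984682-70984711, plus strand): acagagtggccatgtatgtacacgcctata
Psma5 (chr3:108261686-108261715, plus strand): gggtgtgaatactttttctcctgaaggaag
Psmb3 (chr11:97711157-97711186, plus strand): aagcccttcatttgctctctggacctcatt
Psmb5 (chr14:54617889-54617918, minus strand): cagatctgctggacttgggtccggggagtc
Psme2 (chr14:55590035-55590064, minus strand): ggaaaatcatatccctgagtcagctcttgc

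The *Psma3* window lies 3 more times in the genome, at chr6:31142377-31142406, chr14:52369320-52369349 and chr16:45411921-45411950, in the pseudogenes Gm13835 (within the lncRNA gene *Lncpint*), Gm4742 and Gm5406 (where the window also lies in the protein-coding gene *Gm609*). The *Psma5* window lies in 2 pseudogenes, Gm12989 and Psma5-ps, the *Psmb3* window in 5 (Gm13649, Gm5356, Gm6884, Gm6467, which lies within the protein-coding gene *Map3k13*, and Gm5232, which lies within the lncRNA gene *Gm41537*), and the *Psmb5* window in 2 (Gm3375 and Psmb5-ps). Of the *Psme2* copies, 1 is in the pseudogene Gm7928 and the other at chr11:48945977-48946006 in the annotated protein-coding gene *Psme2b*. None of these pseudogenes has a row in the count table. How reads that fit several places were counted is not given in the sources used here.

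Divided by the windows found nowhere else, in place of the coding length, the footprint levels of the 14 core subunits came close together. In *Mael*+/- they spanned 2.14-fold, from 293 CPM per 1000 such windows for *Psma1* to 627 for *Psmb1*, in place of 17.9-fold, and the SD of log2 levels fell from 1.43 to 0.28. *Psma3* was at 326, *Psma5* at 442, *Psmb3* at 316 and *Psmb5* at 347 on this scale. In *Mael*-/- the span went from 19.1-fold to 2.03-fold. The 3 libraries of each genotype gave 2.15 to 2.41-fold in *Mael*+/- and 2.07 to 2.27-fold in *Mael*-/-, with *Mael*+/- extract 1 the highest of its group.

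The scale was chosen after the data were seen, and it assumes that reads found in several places were not counted, which was not tested on reads. Without it, the 5 core subunits with under 1% of such windows (*Psma1*, *Psma6*, *Psma7*, *Psmb2* and *Psmb4*) spanned 1.51-fold per coding kilobase in *Mael*+/-, from 282 to 427 CPM. RNA did not close up in the same way: with windows of 75 bases over the mRNA, the read length, the span of the 14 core subunits went from 8.94-fold to 6.29-fold in *Mael*+/-. These 2 spans differ by more than shared sequence, since lengths join all transcripts of a gene and windows come from 1 transcript. *Psma7*, with 0% of its mRNA windows found elsewhere, went from 167 CPM per mRNA kilobase to 303 per 1000 windows. The 17 cap subunits had a median of 176 CPM per 1000 unique coding windows in *Mael*+/- footprints, beside 425 for the core, and 163 beside 393 in *Mael*-/-. On that scale the cap spanned 2.51-fold in *Mael*+/- and 2.53-fold in *Mael*-/-, more than the core. No test was made between genes.

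**Figure D2:**
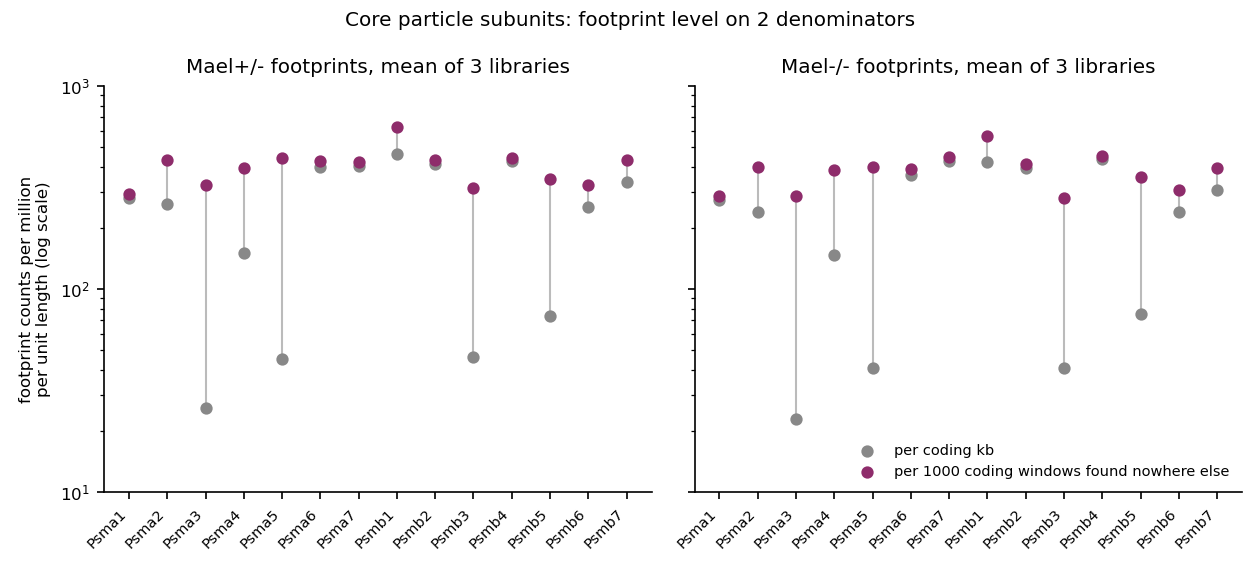
Footprint level of the 14 constitutive core subunits, as CPM per coding kilobase (grey) and per 1000 coding windows of 30 bases found nowhere else in the genome (purple), mean of 3 libraries, log axis, in Mael+/- (left) and Mael-/- (right). The grey points span 17.9-fold and 19.1-fold, and the purple points 2.14-fold and 2.03-fold.

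Footprints were also set against RNA of the same gene, on the counts, with both assays scaled over all 12 libraries. In each genotype 33 of 49 members differed, 24 with more footprints and 9 with fewer (adjusted p under 0.05, edgeR). Of all 13448 genes, 58.1% differed in *Mael*+/- and 58.6% in *Mael*-/-, with 27.7% and 27.8% higher and 30.4% and 30.8% lower. The comparison is relative to other genes, and since RNA was counted over whole mRNAs and footprints over coding sequence, it also moves with the coding share of an mRNA. Extract 1 of *Mael*+/- bears on none of these counts by more than 2: without it 31 differed in *Mael*+/- and 35 in *Mael*-/-.

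The highest members were *Psmb5*, the chymotrypsin-like catalytic subunit, at 1.26 (SE 0.10, 95% interval 1.04 to 1.48, adjusted p = 1.1e-07) in *Mael*+/-, then *Psma6* at 1.236 and *Psma1* at 1.10. *Psmb5* was at 25.2, 27.01 and 24.6 CPM in *Mael*+/- and 22.6, 27.96 and 28.9 CPM in *Mael*-/- RNA, and 54.3, 60.01 and 60.4 CPM in *Mael*+/- and 61.1, 60.0 and 58.5 CPM in *Mael*-/- footprints. *Psma6* was at 144, 133 and 131 CPM in *Mael*+/- and 123, 133 and 138 CPM in *Mael*-/- RNA, and 327, 262 and 324 CPM in *Mael*+/- and 286, 260.3 and 282 CPM in *Mael*-/- footprints. *Psma1*, like *Psma6* a subunit of the alpha ring, was at 114, 108 and 108 CPM in *Mael*+/- and 112, 109 and 113 CPM in *Mael*-/- RNA, and 248, 189 and 233 CPM in *Mael*+/- and 205, 208 and 241 CPM in *Mael*-/- footprints. All 6 footprint libraries lay above all 6 RNA libraries for each of these 3 genes.

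The lowest were *Psma3* at -1.86 (SE 0.12, 95% interval -2.11 to -1.60, adjusted p = 1.05e-08) in *Mael*+/-, *Psme2* at -1.49 and *Psmb3* at -1.41. *Psma3* was at 80.3, 70.5 and 77.2 CPM in *Mael*+/- and 70.1, 70.3 and 73.8 CPM in *Mael*-/- RNA, and 22.1, 17.04 and 20.5 CPM in *Mael*+/- and 18.04, 14.7 and 20.0 CPM in *Mael*-/- footprints. *Psme2*, which encodes a subunit of the immune activator PA28, was at 71.1, 96.9 and 90.9 CPM in *Mael*+/- and 78.5, 92.6 and 94.9 CPM in *Mael*-/- RNA, and 25.8, 29.04 and 32.9 CPM in *Mael*+/- and 28.96, 29.1 and 29.8 CPM in *Mael*-/- footprints. *Psmb3*, a beta subunit without catalytic activity, was at 70.5, 88.1 and 80.2 CPM in *Mael*+/- and 68.5, 77.6 and 89 CPM in *Mael*-/- RNA, and 24.1, 33.04 and 28.2 CPM in *Mael*+/- and 24.7, 25.4 and 25.8 CPM in *Mael*-/- footprints. The footprint libraries lay below every RNA library for all 3.

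The 9 members with fewer footprints in *Mael*+/- were *Psma3*, *Psma4*, *Psma5*, *Psmb3*, *Psmc1*, *Psmd2*, *Psme2*, *Psmd9* and *Psmc3ip*. In the first 7, 46.78% (*Psmd2*) to 91.75% (*Psma3*) of the coding windows are found elsewhere, and in the last 2 none are. *Psmd9* has 669 coding bases in an mRNA of 2592, and *Psmc3ip* 654 in 972. *Psmf1*, with 816 in 3559 and no coding window found elsewhere, was higher in footprints in both genotypes (0.36 and 0.33). The part of the coding share was not tested. In *Mael*-/- the list held *Psmg4* in place of *Psma4*. *Psmg4* has no coding window found elsewhere, and 372 coding bases in an mRNA of 554. A high share did not always go with a low value of footprints against RNA. Such a value is relative to the RNA of the gene. *Psmb5* and *Psmd11* were low per length in both assays, but so was *Psma3*, which had the lowest value. In *Mael*+/- *Psmb5* was at 73.2 CPM per coding kilobase and 29.4 per mRNA kilobase, and *Psmd11* at 76.4 and 49.5. *Psma3* was at 25.9 and 31.7 on these scales. What sets these genes apart was not tested. *Psmb5* had the highest value with 78.07% of its windows found elsewhere, and *Psmd11*, with 51.45%, was higher in footprints in both genotypes (0.24, adjusted p = 0.0218, and 0.33, adjusted p = 0.00363, edgeR). Of the 11 members between 5% and 70%, 6 were above 0 in *Mael*+/- and 5 in *Mael*-/-. Of the 75-base mRNA windows, 45.92% are found elsewhere for *Psmb5*, 55.89% for *Psme2*, 43.57% for *Psma5*, 41.55% for *Psmb3* and 31.35% for *Psma3*. Over the 49 members, Pearson's r between the share of windows found elsewhere and the log2 footprints against RNA was -0.58 in *Mael*+/- and -0.59 in *Mael*-/-, and Spearman's rho -0.20 and -0.25. These are across genes that share the same libraries, and 5 of the genes lie over 70%.

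**Figure D3:**
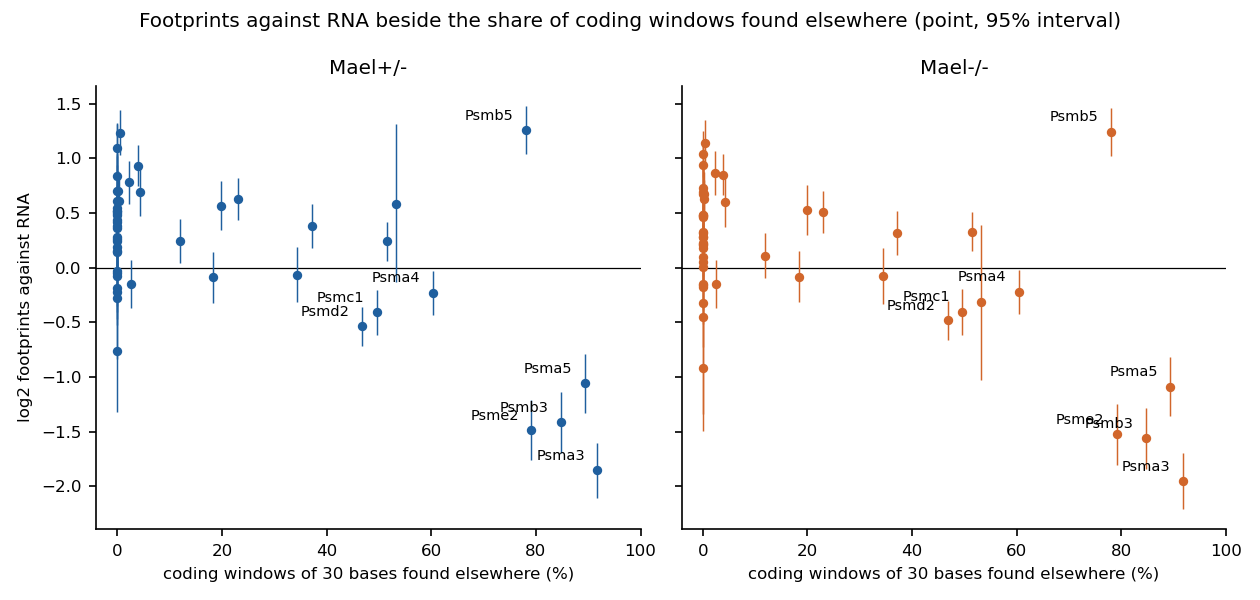
Log2 of footprints against RNA (point, 95% interval) for the 49 members tested (Psmc3ip included) against the percentage of their coding windows of 30 bases found elsewhere in the genome, in Mael+/- (left) and Mael-/- (right). Of the 5 genes above 70%, Psma3, Psme2, Psmb3 and Psma5 lie at -1.06 or lower and Psmb5 at 1.26 in Mael+/-.

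The germ cell subunit *Psma8* had the largest log2 difference between genotypes of the 49 members in both assays, with a single control extract far above the rest. It was at 78.4, 22.3 and 24.9 CPM in *Mael*+/- and 18.5, 20.3 and 19.7 CPM in *Mael*-/- RNA, and 94.7, 19.2 and 26.6 CPM in *Mael*+/- and 14.9, 16.4 and 18.2 CPM in *Mael*-/- footprints. *Mael*+/- extract 1 was far above all others in both assays, and the other 2 controls lay just above the *Mael*-/- libraries without overlap. The log2 change was -1.09 (SE 0.41, 95% interval -2.00 to -0.18, adjusted p = 0.871) in RNA and -1.52 (SE 0.48, 95% interval -2.57 to -0.46, adjusted p = 0.964) in footprints (edgeR). Without extract 1 of *Mael*+/- it was -0.26 (adjusted p = 0.739) in RNA and -0.50 (adjusted p = 0.562) in footprints. The pachytene, early meiotic and germ cell marker sums given above are high in the same extract, and their part in the result was not tested.

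Its constitutive counterpart *Psma7* was at 230.2, 284 and 283 CPM in *Mael*+/- and 248, 282 and 302 CPM in *Mael*-/- RNA, and 294, 266 and 346 CPM in *Mael*+/- and 311, 318 and 329 CPM in *Mael*-/- footprints. The groups overlapped in both assays. Per length, *Psma8* made up 24.3%, 6.86% and 7.64% in *Mael*+/- and 6.56%, 6.35% and 5.77% in *Mael*-/- of the RNA of both genes. These RNA shares depend on the length taken for *Psma7*, here 1591 bases with the exons of its transcripts joined. Its transcript used for windows is shorter, with 878 windows of 75 bases, and that length would give lower shares. In footprints *Psma8* made up 24.2%, 6.70% and 7.10% in *Mael*+/- and 4.53%, 4.86% and 5.21% in *Mael*-/-. The *Psma8* to *Psma7* ratio within a library differed between genotypes by -0.91 log2 (exact two-sided permutation test, p = 0.1, adjusted p = 0.267) in RNA and by -1.24 log2 (exact two-sided permutation test, p = 0.1, adjusted p = 0.267) in footprints, with no overlap between groups. With 3 against 3 libraries p cannot go below 0.1, and the p-values are adjusted over the 8 ratios tested. Without extract 1 of *Mael*+/- the differences were -0.23 and -0.54. The coding sequences of both genes are 74.83% identical and share no window of 30 bases, so exact reads of this length tell them apart.

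The immune subunits were below their constitutive counterparts in every library. *Psmb8*, the immune counterpart of *Psmb5*, was at 2.21, 3.48 and 5.42 CPM in *Mael*+/- and 3.04, 5.35 and 4.69 CPM in *Mael*-/- RNA, and 4.67, 3.23 and 5.76 CPM in *Mael*+/- and 5.84, 5.79 and 5.92 CPM in *Mael*-/- footprints. The footprint groups did not overlap, with *Mael*+/- extract 3 at 5.76 CPM next to the lowest *Mael*-/- value of 5.79 CPM. The log2 change was 0.25 (SE 0.33, 95% interval -0.47 to 0.98, adjusted p = 0.982) in RNA and 0.35 (SE 0.23, 95% interval -0.17 to 0.86, adjusted p = 0.998) in footprints, and leaving out 1 library at a time gave 0.005 (without *Mael*+/- extract 1) to 0.627 (without extract 3) and 0.163 (without extract 2) to 0.552 (without extract 3).

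*Psmb9*, the counterpart of *Psmb6*, was at 2.43, 3.30 and 4.17 CPM in *Mael*+/- and 2.75, 4.07 and 2.80 CPM in *Mael*-/- RNA, and 4.57, 3.48 and 5.08 CPM in *Mael*+/- and 3.49, 4.09 and 2.72 CPM in *Mael*-/- footprints. Its groups overlapped in both assays, and its log2 change was -0.04 in RNA and -0.35 (SE 0.25, 95% interval -0.91 to 0.20, adjusted p = 0.998) in footprints. *Psmb10*, the counterpart of *Psmb7*, was at 18.97, 28 and 24.9 CPM in *Mael*+/- and 20.4, 26.6 and 30.1 CPM in *Mael*-/- RNA, and 26.9, 36.4 and 33.6 CPM in *Mael*+/- and 29.7, 30.9 and 29 CPM in *Mael*-/- footprints, above the other immune subunits in every library. Its log2 change was 0.12 (SE 0.17, 95% interval -0.28 to 0.51, adjusted p = 0.982) in RNA and -0.11 in footprints.

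Of the subunits they replace, *Psmb5* is given above. *Psmb6* was at 192, 223 and 198 CPM in *Mael*+/- and 155, 202 and 217 CPM in *Mael*-/- RNA, and 185, 186 and 176 CPM in *Mael*+/- and 168, 176 and 173 CPM in *Mael*-/- footprints, and *Psmb7* at 200.3, 201 and 196 CPM in *Mael*+/- and 165, 187 and 207 CPM in *Mael*-/- RNA, and 305, 246 and 289.8 CPM in *Mael*+/- and 258, 229 and 279.8 CPM in *Mael*-/- footprints. *Psmb6* footprints were lower in every *Mael*-/- library than in any control, with a log2 change of -0.08, and the *Psmb7* groups overlapped. Per length, *Psmb8* made up 5.89% to 13.6% of the RNA and 4.89% to 8.83% of the footprints of itself and *Psmb5*, *Psmb9* made up 1.6% to 2.64% and 1.68% to 3.03% of its pair, and *Psmb10* made up 6.74% to 9.99% and 8.21% to 13.1%. The first of these shares is against a subunit with 78.07% of its coding windows found elsewhere.

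No ratio of an immune to its constitutive subunit reached a p of 0.05, which 3 against 3 libraries cannot give. *Psmb8* to *Psmb5* differed by 0.25 log2 (exact two-sided permutation test, p = 0.6, adjusted p = 0.8) in RNA, and by 0.35 log2 (exact two-sided permutation test, p = 0.1, adjusted p = 0.267) in footprints, without overlap. Leaving out 1 library at a time took these from -0.063 to 0.595 and from 0.107 to 0.512, with the low ends without *Mael*+/- extract 1 in RNA and extract 2 in footprints and the high ends without extract 3. *Psmb9* to *Psmb6* differed by 0.08 in RNA (p = 0.9) and -0.27 in footprints (p = 0.4), and *Psmb10* to *Psmb7* by 0.20 (p = 0.4) and 0.03 (p = 1), all by the same exact permutation test. The summed macrophage and antigen-presenting cell markers were at 217 to 362 CPM in *Mael*+/- RNA and 337 to 346 CPM in *Mael*-/-, and at 246 to 477 CPM and 386 to 445 CPM in footprints, with *Mael*+/- extract 3 the highest in both assays. *Psmb8* and *Psmb9* were also highest among the controls in that extract in both assays. *Psmb10* was highest among the controls in extract 2 in both assays, at 28 and 36.4 CPM, where the macrophage sums were lowest. The part of these cells in the values was not tested.

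Exact reads of 30 bases tell the immune and the constitutive subunits apart, since no coding window of 30 bases is shared within any of the 3 pairs. The windows below are the closest 30 coding bases in 1 alignment of each pair. Only stretches without a gap and inside 1 exon of both genes were compared for this. Capitals mark the bases that differ, 2 in the first pair and 5 in each of the others.
Psmb8 (chr17:34200238-34200267, plus strand): atgggcaGcatgatctgtggctgggaCaag
Psmb5 (chr14:54616525-54616554, minus strand): atgggcaCcatgatctgtggctgggaTaag
Psmb9 (chr17:34184321-34184350, minus strand): ccTctcaggTtcCgcTgctgatGcccaagc
Psmb6 (chr11:70526357-70526386, plus strand): ccGctcaggCtcAgcCgctgatAcccaagc
Psmb10 (chr8:105937691-105937720, minus strand): gcAcgCaaGacCggGactaccatcgcgggg
Psmb7 (chr2:38643370-38643399, minus strand): gcTcgGaaAacTggCactaccatcgcgggg
The thymus subunit *Psmb11*, expressed in cortical thymic epithelium, had 1 count in each of 3 RNA libraries, 2 counts in 1 footprint library and 0 in the other 8. A count of 0 allows up to 3 counts in a library, which covers the 8 libraries at 0. In the others, 1 or 2 counts are too few to give a level.

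**Figure D4:**
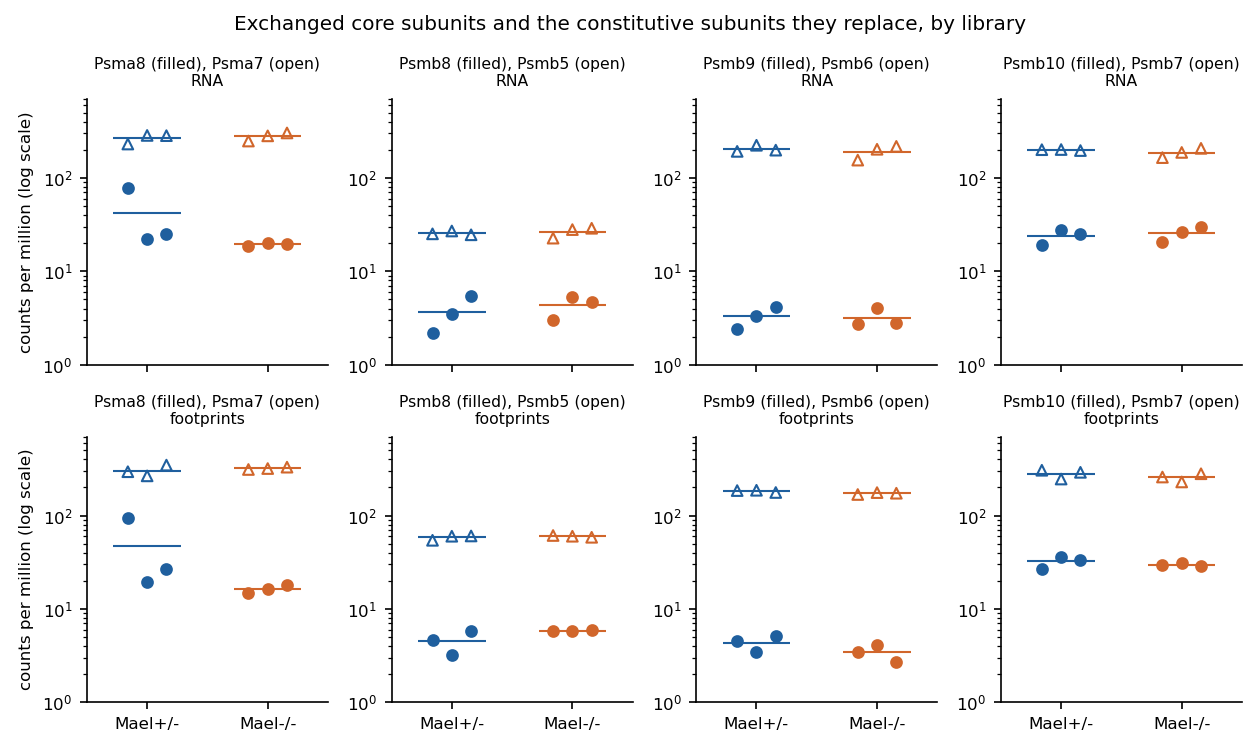
CPM of each exchanged subunit (filled circles) and the constitutive subunit it replaces (open triangles) in every library, RNA above and footprints below, log axis, with the mean of 3 libraries as a line. Psma8 stands at 78.4 CPM RNA and 94.7 CPM footprints in a single Mael+/- extract and at 14.9 to 26.6 CPM in every other library.

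The 7 assembly chaperones, which help alpha rings and the cap base to form, were low per length, with a median of 59.3 CPM per coding kilobase in *Mael*+/- footprints beside 162 for the 31 constitutive subunits. In *Mael*+/- footprints *Psmg2* (86.8 ± 15.7), *Psmg1* (71.2 ± 10.9) and *Psmd5* (62.3 ± 5.72) were highest and *Psmg4* (49.7 ± 8.36), *Psmg3* (52.7 ± 2.20) and *Psmd10* (52.7 ± 7.11) lowest. Their log2 changes in *Mael*-/- ran from -0.09 (*Psmd9*) to 0.08 (*Psmg3*) in RNA and from -0.31 (*Psmg4*) to 0.10 (*Psmd5*) in footprints, and none passed the test.

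*Psmg4* was at 19.4, 21.4 and 20.5 CPM in *Mael*+/- and 19.5, 21.5 and 22.9 CPM in *Mael*-/- RNA, and 16.8, 22.1 and 16.6 CPM in *Mael*+/- and 15.2, 15.8 and 13.5 CPM in *Mael*-/- footprints. Its footprints were lower in every *Mael*-/- library than in any control, at -0.31 (SE 0.15, 95% interval -0.65 to 0.03, adjusted p = 0.998). *Psmd5* was at 98.6, 119.6 and 121 CPM in *Mael*+/- and 111, 118 and 126 CPM in *Mael*-/- RNA, and 97.6, 84.5 and 100.9 CPM in *Mael*+/- and 105, 92.7 and 106 CPM in *Mael*-/- footprints. *Psmd10*, which overlaps *Atg4a* in the annotation, was at 25.1, 30.5 and 30.1 CPM in *Mael*+/- and 27.4, 31.5 and 29.9 CPM in *Mael*-/- RNA, and 39.8, 30.97 and 39.2 CPM in *Mael*+/- and 45.6, 36.9 and 35.4 CPM in *Mael*-/- footprints. The groups of *Psmd5* and *Psmd10* overlapped in both assays.

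Activators open the core particle without ubiquitin. *Psme4*, which encodes PA200, the activator tied to histone removal in spermatids, was at 214, 151 and 193 CPM in *Mael*+/- and 204, 169 and 168 CPM in *Mael*-/- RNA, and 181, 129.8 and 142 CPM in *Mael*+/- and 155, 145 and 162 CPM in *Mael*-/- footprints. The groups overlapped, and its log2 change was -0.04 (SE 0.14, 95% interval -0.34 to 0.26, adjusted p = 0.991) in RNA and 0.03 (SE 0.12, 95% interval -0.25 to 0.30, adjusted p = 0.998) in footprints. Per length *Psme3* (176 ± 22.5 CPM per coding kilobase in *Mael*+/-) and *Psme1* (126 ± 10.4) led the activators, ahead of *Psme2* (39.3 ± 4.76), *Psme4* (27.3 ± 4.84) and *Psme2b* (1.48 ± 0.143). *Psme1* and *Psme2* encode the 2 kinds of subunit of one ring, and per 1000 coding windows found nowhere else they were at 199 and 203. Their *Mael*+/- RNA moved apart instead, from 106 and 88.3 CPM per mRNA kilobase to 121 and 238 per 1000 mRNA windows found nowhere else.

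*Psme2b*, an intronless copy, had 12 to 34 counts in RNA and 5 to 17 in footprints, while *Psme2* had 1085 to 2643 and 225 to 382. The coding sequences are 99.31% identical and share 547 windows of 30 bases, so the split between them is uncertain. *Psme2b* was at 0.738, 0.770 and 0.720 CPM in *Mael*+/- and 0.869, 1.239 and 1.237 CPM in *Mael*-/- RNA, without overlap, with a log2 change of 0.61 (SE 0.29, 95% interval -0.03 to 1.26, adjusted p = 0.937). In footprints it was at 0.956, 1.16 and 1.07 CPM in *Mael*+/- and 1.29, 0.599 and 0.592 CPM in *Mael*-/-. The inhibitor *Psmf1* was at 68.3 ± 6.08 CPM per coding kilobase in *Mael*+/- footprints and 12.9 ± 0.218 per mRNA kilobase in RNA, and changed by 0.03 and -0.01 log2 in *Mael*-/-.

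*Psmc3ip*, the recombination cofactor, shared the high value of *Psma8* in a single control extract. It was at 54.1, 31.4 and 30.3 CPM in *Mael*+/- and 26.9, 28.6 and 27.2 CPM in *Mael*-/- RNA, and 33.1, 16.6 and 14.9 CPM in *Mael*+/- and 13.6, 14.7 and 13.4 CPM in *Mael*-/- footprints. *Mael*+/- extract 1 was the highest in both assays, and groups did not overlap. The log2 change was -0.47 (SE 0.20, 95% interval -0.93 to -0.02, adjusted p = 0.91) in RNA and -0.64 (SE 0.26, 95% interval -1.22 to -0.06, adjusted p = 0.998) in footprints, and without that extract -0.15 and -0.19 (adjusted p = 0.931 and 0.881). The gene overlaps *Mlx* in the annotation, as *Psma4* does with *AY074887*, *Psme1* with *Emc9*, *Psme4* with *Erlec1*, *Psmd1* with *Htr2b* and *Psmf1* with *Tmem74b*. *Psme2b*, which has few counts, overlaps the protein-coding gene *9930111J21Rik1*. Whether counting used strand is not given in the sources used here, so reads of such partners may not be told apart.

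Other genes of the pathway changed little. Of 27 names listed for cofactors, ubiquitin genes and regulators of proteasome genes, 23 are in the table, and 0 passed the test in either direction in RNA, footprints or translation efficiency. The largest RNA changes were -0.14 for *Vcp*, the segregase that hands proteins to the proteasome, -0.10 for *AI314180*, 0.12 for *Ube3c*, a ubiquitin ligase of the proteasome, and 0.10 for *Zfand2a*. In footprints they were -0.20 for *Zfand2a*, -0.19 for *Akirin2*, 0.15 for *Nfe2l2* and 0.15 for *Ubqln2*. In translation efficiency they were -0.29 for *Zfand2a*, -0.16 for *Akirin2*, 0.14 for *Nfe2l2* and 0.11 for *Vcp*. Of 10 antigen processing genes 0 passed in RNA, and 0 of the 9 tested in footprints, with *Tap1* at 0.28 and *Tap2* at 0.28 and *H2-D1* at -0.27 and *H2-K1* at -0.21 in RNA, and *Tap2* at 0.29, *H2-K1* at -0.27 and *Irf1* at -0.09 in footprints. All genes tested had a median of 0.00 in RNA and -0.01 in footprints.

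Promoters were read from RefSeq (GRCm38, 250 bases before to 50 after each start), where 42 of the 50 genes matched by symbol. The letters TGACNNNGC, part of the antioxidant response element, occurred on either strand in 6 of 42 (14.29%, against 12.39% of 32851 promoters and 15.11% of those of 15407 protein-coding genes in the table), CCAAT in 15 (35.71%, against 37.41% and 42.39%) and the core of the interferon-stimulated response element, GAAA followed after any 2 bases by GAAA, in 5 (11.9%, against 3.44% and 3.92%). None of those 5 belongs to an immune subunit. A match is a description of letters in this window.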

How the data were processed

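The deposited table gave whole-number counts per gene for 6 RNA and 6 footprint libraries. Per the labels and methods, the authors clipped the linker and the molecular identifier, removed ribosomal RNA with Bowtie 1.2.2, aligned to mm10 with STAR 2.6.0c and counted with featureCounts (Subread 1.6.4), over whole mRNAs for RNA and coding sequence for footprints. The treatment of reads with several places is not given in the sources used here, nor is the collapse of duplicates. Tables of the authors' own comparisons (DESeq2 1.24.0 fold changes and p-values) were not used.

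Gene rows, without repeat copies, were fitted with edgeR 4.0.16 (R 4.3.3, quasi-likelihood, TMM scaling, Benjamini-Hochberg adjustment over all genes that passed the filter on low counts). Translation efficiency is the interaction of genotype and assay, scaled within each assay. Footprints against RNA used TMM over 12 libraries. By the methods, RNA and footprints came from the same extracts. Over 11235 genes, libraries of equal number deviated together from their group means in *Mael*+/- (correlations 0.804, 0.667 and 0.725). In *Mael*-/- the correlations were 0.245, 0.267 and 0.235. These are no higher than the 0.301 between genotypes in RNA of number 1, and do not by themselves show the pairing. Ratios of 2 genes used counts plus 0.5 and an exact permutation test (scipy 1.17.1). DESeq2 1.42.0 was an alternative, beside other scaling, filters, the block and leaving out each library. The fits were tested on simulated data. Members and lists were chosen with earlier results of these data known. Named genes were the exchanged subunits with their counterparts, *Psme4*, *Psmc3ip*, *Psmb11*, the 3 largest changes each way with at least 20 counts on average, and the 3 highest and lowest levels of a class. 1 value that this rule selects from the antigen processing list is not reported here. Intervals of a count of 0 cover counting error only.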

Additional observations from a re-analysis of the deposited data

How the results depend on the processing

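Of 395 values recomputed under alternatives, 366 stayed on the same side of 0 and of the threshold, or within 1.5 times a count. In RNA, footprints and translation efficiency 0 proteasome genes passed the test between genotypes under every alternative run, while the count over all genes went from 17 to between 2 and 64 in RNA and from 8 to between 1 and 23 in footprints. Footprints against RNA gave 30 to 38 members in *Mael*+/- and 29 to 37 in *Mael*-/-. With each extract as a replicate block, which pairs the RNA and footprints, 38 and 37 members passed in place of 33 and 33, and in translation efficiency 2 in place of 0 had an unadjusted p under 0.05 (*Psma8* and *Psmg4*), with 0 called either way. Replicate numbers did not clearly pair the genotypes (correlations 0.301, -0.023 and 0.203 in RNA, 0.078, 0.287 and 0.056 in footprints). As a block they left the count of members at 0.

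Leaving out 1 library at a time turned the sign of 5 ratio and 18 single-gene values, none of which had passed a test. The ratio of *Psmb8* to *Psmb5* in RNA then ran from -0.063 to 0.595, of *Psmb9* to *Psmb6* in RNA from -0.08 to 0.28 and of *Psmb10* to *Psmb7* in footprints from -0.16 to 0.21. Without a change of sign, the RNA ratio of *Psma8* to *Psma7* lay between -1.29 and -0.23 and the footprint ratio between -1.61 and -0.54, and that of *Psmb8* to *Psmb5* in footprints from 0.107 to 0.512. The change in translation efficiency ran from -1.25 to 0.59 for *Psma8*, from -0.28 to 0.34 for *Psmb8*, from -0.49 to 0.29 for *Psmc3ip* and from -0.05 to 0.21 for *Psme4*. In RNA it ran from -0.25 to 0.17 for *Psmb9*, from -0.021 to 0.246 for *Psmb10* and from -0.168 to 0.076 for *Psme4*, and in footprints from -0.069 to 0.175 for *Psme4*. Each is with a library missing, and the cause was not tested.

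Chosen after seeing the data, the span of core footprint levels was 2.14-fold (2.20 with windows of 28 bases, 2.08 with 32) in place of 17.9-fold in *Mael*+/-, and 2.03-fold (2.05 and 2.13) in place of 19.1-fold in *Mael*-/-. With both libraries of *Mael*+/- extract 1 left out, also chosen after seeing the data, the *Psma8* change in translation efficiency was -0.24. The immune subunits and *Psme2b* have few counts, and 3 libraries a group limit every comparison.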
